A study of Rattus norvegicus with 6 samples.

Results

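MHC class II antigen presentation was followed through 3 transcripts in the kidneys of rats after sub-total nephrectomy (SNx) and of non-operated rats (NoOp). The members were taken by their Ensembl identifiers, which are Cd74 (ENSRNOG00000018735), RT1-Da (ENSRNOG00000032844) and RT1-Ba (ENSRNOG00000000451). They are 3 of the 23487 genes in the deposited count table, and earlier results of these data were known when they were chosen. Bulk RNA sequencing was performed on 3 SNx and 3 NoOp kidneys. According to the study's methods, the animals were male Wistar Han rats, part of the right kidney was resected and the left kidney was removed at a later operation, and each SNx animal was killed when serum creatinine or proteinuria had crossed a preset limit, so the time after surgery varied between animals. The NoOp group had no operation, so surgery as such and loss of kidney tissue cannot be told apart. Ages are given neither by the labels nor by the methods.

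MHC class II molecules are heterodimers of an alpha and a beta chain that display peptides from endocytosed proteins to CD4+ T cells. RT1-Da and RT1-Ba encode the alpha chains of the 2 classical rat class II molecules, RT1-D and RT1-B, which correspond to human HLA-DR and HLA-DQ. Cd74 encodes the invariant chain, which assembles with the new alpha and beta chains, fills the peptide groove and directs the complex to endosomes. In the healthy kidney class II molecules are carried mainly by dendritic cells and macrophages of the interstitium. Tubular epithelium can also carry them, for example after injury. Transcription of the 3 genes is raised by the coactivator CIITA, which interferon-gamma can induce and which acts through the X and Y boxes of class II promoters.

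The promoters of the members are shown as a planned description, and no link between them and the expression values was tested. Each sequence holds the 250 bases before the annotated gene start, 5′ to 3′ along the gene, from RefSeq on build GRCr8, whereas the count table was made on Rn6. All 3 members were matched by symbol and lie on the plus strand, Cd74 at chr18:56526956-56527205, RT1-Da at chr20:4515165-4515414 and RT1-Ba at chr20:4576807-4577056. Capitals mark the motif matches described after the sequences.
Cd74: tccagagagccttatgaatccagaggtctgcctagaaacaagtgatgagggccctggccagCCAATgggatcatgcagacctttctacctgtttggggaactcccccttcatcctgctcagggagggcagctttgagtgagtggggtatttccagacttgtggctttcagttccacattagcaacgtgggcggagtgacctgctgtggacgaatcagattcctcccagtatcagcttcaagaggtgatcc
RT1-Da: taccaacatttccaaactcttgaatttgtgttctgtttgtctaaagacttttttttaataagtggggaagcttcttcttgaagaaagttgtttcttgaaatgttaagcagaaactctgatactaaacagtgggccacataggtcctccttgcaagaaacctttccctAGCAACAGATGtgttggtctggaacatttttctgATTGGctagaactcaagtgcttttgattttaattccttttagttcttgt
RT1-Ba: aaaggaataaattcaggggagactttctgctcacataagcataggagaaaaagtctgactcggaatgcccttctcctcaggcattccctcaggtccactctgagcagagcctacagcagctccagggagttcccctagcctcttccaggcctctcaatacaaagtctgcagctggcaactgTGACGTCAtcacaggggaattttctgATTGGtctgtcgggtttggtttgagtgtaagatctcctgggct

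Motifs were searched on both strands. The core of the Y box, CCAAT, was present in all 3 promoters, and in 34.0% of the 33469 RefSeq promoters of the same length. It was read as ATTGG along RT1-Da and RT1-Ba, beginning 49 and 43 bases before the start, and as CCAAT along Cd74, beginning 189 bases before the start. The X box pattern, which was AGCAACAGATG with the third, the seventh and the ninth base left free, was matched in RT1-Da by that run itself, beginning 83 bases before the start, and not in the other two. It occurs in 0.920% of all promoters. The pattern is narrow, so the lack of a match does not show that a promoter has no X box. TGACGTCA, the cyclic AMP response element that corresponds to the X2 box, lay 69 bases before the start of RT1-Ba and occurs in 1.59% of promoters. It was added to the search after the promoters had been read. The longest run shared by RT1-Da and RT1-Ba was TTTTCTGATTGG, of 12 bases, which ends in the Y box core and is present in 8 of the 33469 promoters. The longest run that Cd74 shared with RT1-Da had 7 bases, and with RT1-Ba 8 bases.

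The other class II chain and peptide-loading genes were examined for their promoters only, because their counts could not be matched by name. All 9 promoters found for the planned genes of these 2 kinds, the 3 members included, held the Y box core. RT1-DMb, also planned, was not among the 9. The X box pattern was present in 4 of the 9, those of RT1-Da, RT1-Db1, RT1-Db2 and RT1-DOb. The interferon-gamma activated site TTCNNNGAA and the interferon-stimulated element, GAAA repeated after 2 free bases, were present in 0 of the 9, and in 7.67% and 3.41% of all promoters. A match is a description of the letters in this window and not a measured binding site.

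**Figure D1:**
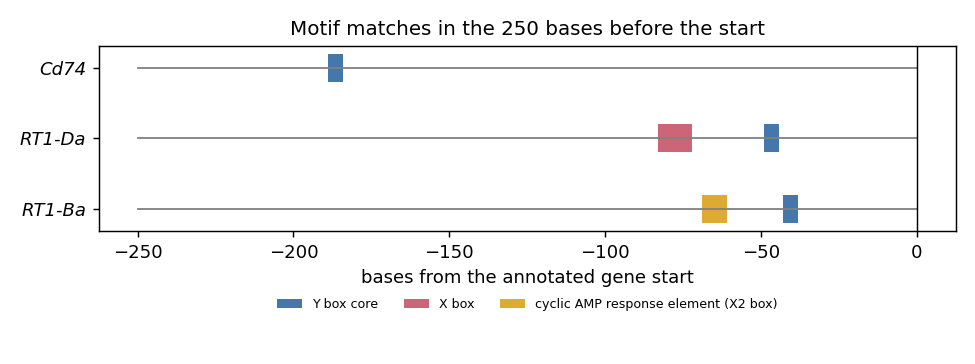
Map of motif matches in the 250 bases before the annotated start of each member, with the distance from the start in bases on the horizontal axis and 1 line per gene. RT1-Da and RT1-Ba have the Y box core 49 and 43 bases before the start, downstream of an X box or X2 box match, and Cd74 has it 189 bases before the start.

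The depth of the libraries ranged from 9572955 to 13140864 estimated counts, with the SNx libraries all smaller than the NoOp libraries. Counts were scaled with TMM (trimmed mean of M-values) factors, which align the bulk of genes between libraries, and are given as CPM, that is, relative to the scaled library size. The scaling factors were 0.884 to 0.963 in NoOp and 0.990 to 1.21 in SNx. The members had from 688 to 21442 counts in a library, so counting error was between 0.683% and 3.81% of a value. It was small beside the spread between animals and covers counting error only. The kidney label was not checked against marker genes, since the identifiers of such genes could not be paired with symbols.

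All 3 class II transcripts were higher in the SNx kidneys. The mean level in SNx was 2.65 times that in NoOp for RT1-Da, 2.50 times for RT1-Ba and 1.80 times for Cd74. For each of them the lowest SNx library lay above the highest NoOp library, as it did for 27.1% of the 13644 genes tested. The rise passed the test across all genes for both alpha chains, as it did for 19.2% of the genes tested. Cd74 narrowly missed it. In bulk tissue more class II-bearing cells and more class II RNA per cell cannot be told apart.

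For RT1-Da, the RT1-D alpha chain, the estimated counts were 1682, 1259 and 1609 across the NoOp animals, given in replicate order throughout, and 3444, 6905 and 2280 across the SNx animals. These correspond to 164, 99.6 and 155 CPM in NoOp and to 332, 534 and 241 CPM in SNx. The groups did not overlap, and the lowest SNx library was 47.3% above the highest NoOp library. NoOp averaged 139 ± 34.6 CPM, and SNx averaged 369 ± 150 CPM (SD, n = 3 each). With limma on voom-transformed counts of all 13644 genes tested, RT1-Da rose by 1.34 ± 0.30 (SE) on the log2 scale, at a Benjamini-Hochberg adjusted p of 0.0135. The 95% interval of the fold was 1.54 to 4.13.

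For RT1-Ba, the RT1-B alpha chain, the NoOp animals had 926, 688 and 907 counts, and the SNx animals had 1950, 3497 and 1153. On the CPM scale these were 90.0, 54.4 and 87.1 in NoOp and 188, 270 and 122 in SNx. The groups again did not overlap, with a gap of 35.3% between the lowest SNx and the highest NoOp library. NoOp averaged 77.2 ± 19.8 CPM, and SNx averaged 193 ± 74.4 CPM (SD, n = 3 each). The rise was 1.27 ± 0.31 (SE) on the log2 scale (limma adjusted p of 0.0170), and the 95% interval of the fold was 1.47 to 3.96. This call was lost without NoOp replicate 2, at a limma adjusted p of 0.0566, and without SNx replicate 1, at 0.0523. Over its 14 alternative settings the adjusted p ranged from 0.000247 to 0.0566.

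For Cd74, the invariant chain, 7894, 6428 and 8417 counts were found in the NoOp animals, against 12906, 21442 and 8122 in the SNx animals. Scaled, these were 768, 509 and 808 CPM in NoOp and 1243, 1657 and 858 CPM in SNx. SNx replicate 3 had fewer counts than NoOp replicate 3 before scaling and stood 6.16% above it after scaling, so the separation of the groups rested on a small gap. With library size alone the gap was 12.7%. NoOp averaged 695 ± 163 CPM, and SNx averaged 1253 ± 400 CPM (SD, n = 3 each). The log2 difference was 0.80 ± 0.28 (SE), and the limma adjusted p of 0.0570 did not pass the threshold of 0.05. The 95% interval of the fold was 1.11 to 2.74, which does not show that Cd74 was unchanged. Without SNx replicate 3 the adjusted p was 0.0148, and over the 15 alternative settings it ranged from 0.0111 to 0.180.

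**Figure D2:**
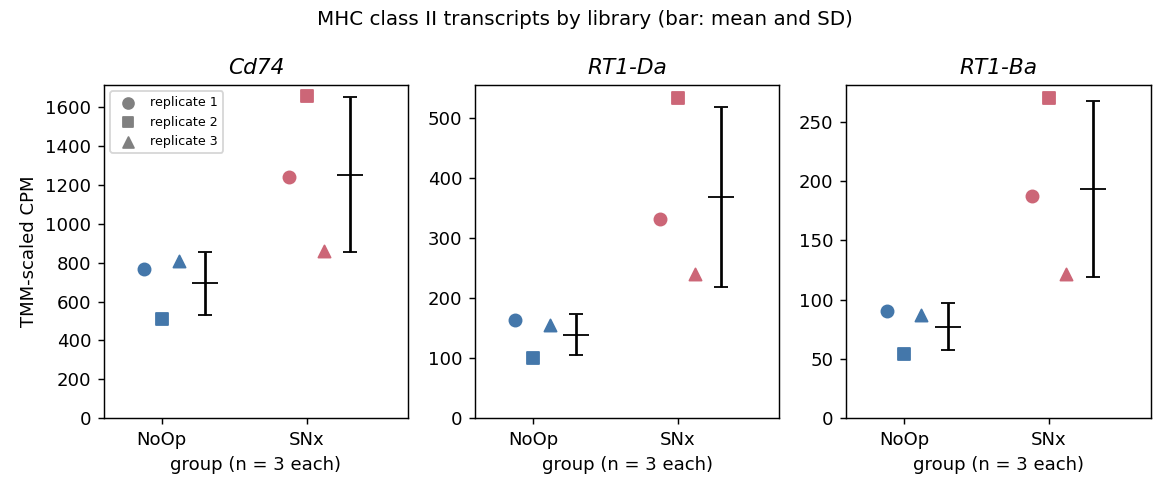
TMM-scaled CPM of Cd74, RT1-Da and RT1-Ba in each library, on axes that start at 0 and differ between panels, with NoOp in blue, SNx in red and 1 marker shape per replicate number. Black bars give the mean and SD of 3 libraries, and SNx replicate 3 lies 6.16% above the highest NoOp library for Cd74 and 47.3% above it for RT1-Da.

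For comparison, 2620 of the 13644 genes tested (19.2%) had a limma adjusted p under 0.05 and were higher in SNx, against 2 of the 3 members. Every SNx library lay above every NoOp library for 3701 genes (27.1%), against 3 of 3 members. Of those 3701 genes, 1089 did not pass the test, Cd74 among them. The exact two-sided permutation p for each member alone was 0.1, the smallest that 3 libraries against 3 can give. A larger fold change in the direction of SNx was found for 9.98% of the tested genes in the case of RT1-Da, for 10.6% in the case of RT1-Ba and for 16.6% in the case of Cd74. Among the 2620 genes called higher, 47.9% had a larger log2 fold change than RT1-Da and 49.9% a larger one than RT1-Ba, so both alpha chains stood near the middle of the rising genes.

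**Figure D3:**
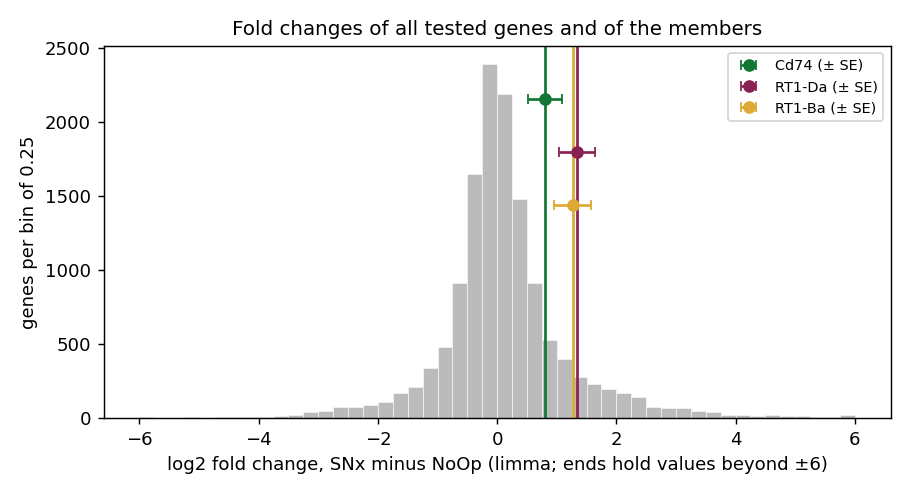
Histogram of the limma log2 fold changes (SNx minus NoOp) of all 13644 tested genes in bins of 0.25, with genes per bin on the vertical axis. Vertical lines mark the members and the points on them carry the standard error as a horizontal bar, at 0.80 for Cd74, 1.27 for RT1-Ba and 1.34 for RT1-Da.

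The level above the NoOp mean differed between the SNx animals in the same order for all 3 transcripts. SNx replicate 2 was highest, SNx replicate 1 intermediate and SNx replicate 3 lowest. RT1-Da stood at 3.83, 2.38 and 1.73 times the NoOp mean in SNx replicates 2, 1 and 3. RT1-Ba stood at 3.50, 2.43 and 1.58 times, and Cd74 at 2.38, 1.79 and 1.23 times. This order was seen in 37.2% of the genes called higher and in 16.6% of all genes tested, so it was not particular to the class II transcripts. NoOp replicate 2 had the lowest level of the NoOp libraries for all 3 members, as it had for 30.2% of all genes tested. The coefficient of variation over 3 animals was 23.4% to 25.6% in NoOp and 31.9% to 40.6% in SNx.

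The 2 alpha chains followed each other closely from library to library. Over the 6 libraries the Pearson correlation of their log2 CPM was 0.997, and no other of the 13643 genes had a higher correlation with either of them. Ranked by library, the order of RT1-Da and RT1-Ba was identical. The rank (Spearman) correlation of Cd74 with either was 0.943. RT1-Ba and other genes, 149 in all, had a higher one with RT1-Da, so a close rank order was not particular to the pair. For Cd74, 137 genes had a higher one than either alpha chain. By Pearson correlation, Cd74 stood at 0.989 with RT1-Ba, where 1 gene was more like Cd74, and at 0.980 with RT1-Da, where 10 genes were. Seen from the alpha chains, 10 genes were more like RT1-Ba than Cd74 was, and 28 were more like RT1-Da. With library size in place of TMM scaling 1 gene was more like either alpha chain than the other alpha chain was. After the group means were subtracted the correlations were 0.991 between the alpha chains, 0.994 for Cd74 with RT1-Ba and 0.980 for Cd74 with RT1-Da, so the 3 transcripts also varied together among animals of the same group. In these deviations 8 genes were more like RT1-Da than RT1-Ba was, and 6 were more like RT1-Ba than RT1-Da was. The pair thus did not rank first once the group difference was removed. There, 4 genes were more like Cd74 than RT1-Ba was, and 17 were more like Cd74 than RT1-Da was. Seen from the alpha chains, Cd74 had 1 gene ahead of it for RT1-Ba and 19 for RT1-Da. These correlations are descriptions over 6 libraries that share their scaling and their group difference, and reads shared between class II genes were not tested.

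The balance between the invariant chain and the alpha chains was measured as a ratio of counts within a library, in which scaling cancels. Transcript length is not removed from these ratios, so they are compared between animals and not read as molar amounts. RT1 genes are polymorphic, and any effect of this on read assignment does not cancel and was not tested. The log2 ratio of Cd74 to the summed RT1-Da and RT1-Ba counts was 1.60, 1.72 and 1.74 for the NoOp animals, against 1.26, 1.04 and 1.24 for the SNx animals. The groups did not overlap, and each group was tight, but how often ratios of other gene pairs separate the groups was not examined. NoOp averaged 1.69 ± 0.08, and SNx averaged 1.18 ± 0.12 (SD, n = 3 each), a difference of -0.51 (exact permutation test, two-sided p of 0.1, the smallest possible). Expressed as counts, the libraries held 3.22 Cd74 counts per alpha-chain count in NoOp and 2.27 in SNx (geometric means). The animal with the highest class II level, SNx replicate 2, had the lowest ratio.

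The ratio of RT1-Da to RT1-Ba did not separate the groups. Their log2 ratio was 0.86, 0.87 and 0.83 for the NoOp animals and 0.82, 0.98 and 0.98 for the SNx animals, so the groups overlapped. The difference was 0.08, with means of 0.85 ± 0.02 and 0.93 ± 0.09 (SD, n = 3 each) and a two-sided p of 0.4 in the exact permutation test. SNx replicates 2 and 3 lay above every NoOp animal. Without SNx replicate 1 the difference was 0.13 (exact permutation p of 0.2, again the smallest value for that split). A small shift can therefore not be excluded with so few animals.

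**Figure D4:**
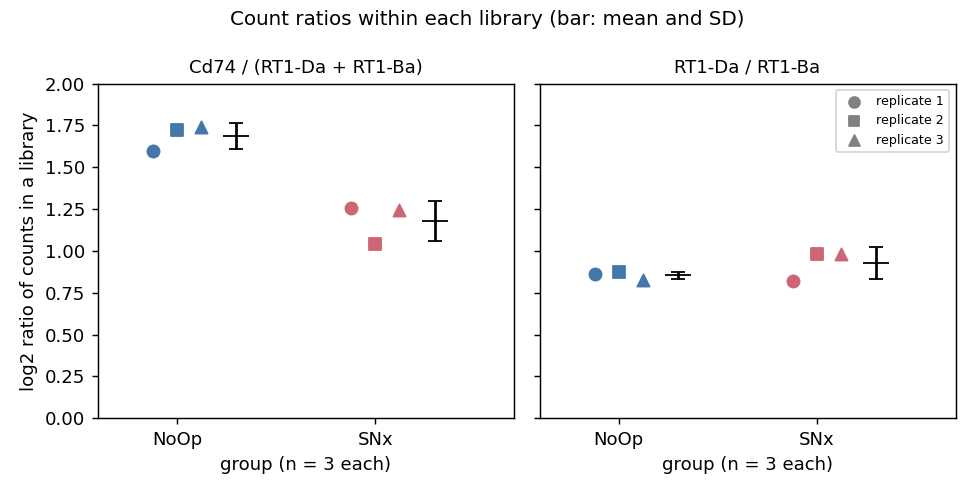
Log2 ratio of counts within each library for Cd74 over the summed alpha chains (left) and for RT1-Da over RT1-Ba (right), with NoOp in blue, SNx in red, 1 marker shape per replicate number, and black bars for the mean and SD of 3 libraries. The left ratio lies between 1.60 and 1.74 in NoOp and between 1.04 and 1.26 in SNx, and the right ratio overlaps between the groups.

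The deposited normalized table gave a check on 2 of the members. It lists Cd74 at 9.59, 8.98 and 9.62 log2 CPM for the NoOp animals and at 10.29, 10.73 and 9.73 for the SNx animals. RT1-Da is listed at 7.35, 6.62 and 7.26 in NoOp and at 8.39, 9.08 and 7.91 in SNx. In this table, under limma with a fitted trend of variance on mean, the log2 fold change was 0.85 for Cd74 (adjusted p of 0.0554) and 1.38 for RT1-Da (adjusted p of 0.0127). The log2 ratio of Cd74 to RT1-Da differed by -0.53 between SNx and NoOp in both tables. RT1-Ba has no entry in the normalized table, although it had a mean of 1520 counts. Of the 1244 genes with at least that mean, 163 have no entry there, and the filter behind the table was not stated.

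The call for Cd74 depended on the scaling and on the test. With library size alone the median gene shifted by 0.24 on the log2 scale towards SNx, against 0.01 with TMM. The log2 fold changes of Cd74, RT1-Da and RT1-Ba were then 1.04, 1.58 and 1.51, and Cd74 passed the threshold at a limma adjusted p of 0.0299. Taken relative to the median of all genes, the 3 values were 0.80, 1.34 and 1.27, and with TMM they were 0.79, 1.32 and 1.25. With the size factors of DESeq2 within limma, Cd74 had a log2 fold change of 0.78 and was not called, at an adjusted p of 0.0647. Among changes other than scaling alone, Cd74 passed with the Wald test of DESeq2, at an adjusted p of 0.0111, and with sample weights in limma, at 0.0334, and the test of edgeR, at 0.0555, did not call it. RT1-Da passed in all 15 alternative settings, at adjusted p-values from 8.45e-05 to 0.0466.

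**Figure D5:**
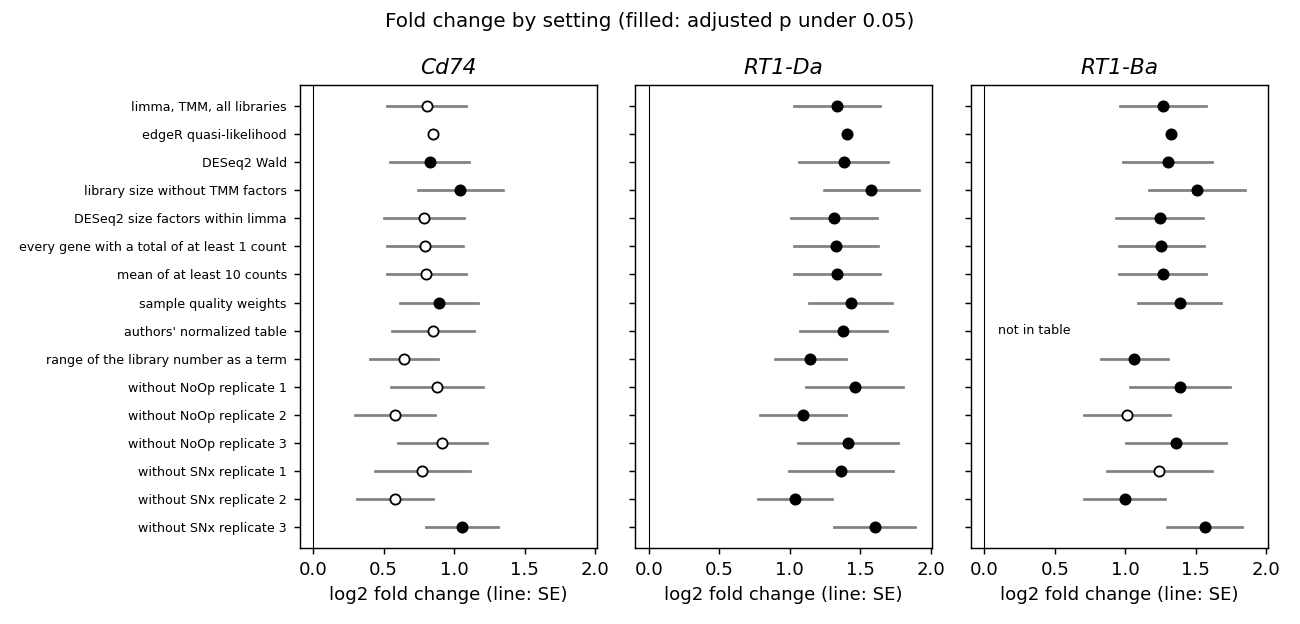
Log2 fold change (SNx minus NoOp) of each member under the main fit and 15 alternative settings, 1 per line, with the standard error as a horizontal line where the method gives one and filled points where the adjusted p was under 0.05. All points lie to the right of 0, RT1-Da is filled throughout, RT1-Ba is open in 2 settings and without a point for the normalized table, and Cd74 is filled in 4.

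Library titles carry a number, and these numbers were divided here into 2 ranges at a gap between them. The labels do not give this division and do not state what the numbers stand for. The first range holds SNx replicates 1 and 2 with NoOp replicate 1, and the second holds SNx replicate 3 with NoOp replicates 2 and 3. Within the first range the log2 difference between SNx and NoOp was 0.90 for Cd74, 1.36 for RT1-Da and 1.32 for RT1-Ba. Within the second it was 0.42, 0.96 and 0.82. The direction was the same in both ranges, and no test within a range was made because each holds a group with 1 library. With the range as a term in limma the adjusted p was 0.0843 for Cd74, 0.0164 for RT1-Da and 0.0180 for RT1-Ba. The methods report a wide range of RNA integrity over the study's samples without linking it to these libraries, and its part in the result was not tested.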

How the data were processed

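Kidney RNA of 6 rats was depleted of ribosomal RNA and sequenced in pairs from strand-specific libraries, although the labels name polyA RNA. The authors quantified transcripts with Salmon against an Rn6 transcriptome, summarised them per gene with tximport and applied voom and limma. Tool versions, annotation release and gene filter are not given in the sources used here. The deposited raw table holds estimated counts as whole numbers, and the deposited normalized table holds log2 CPM values for 12135 genes. The 12 files of single libraries were not used.

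Groups followed the treatment label. Replicates were numbered in deposition order. The filterByExpr function of edgeR 4.0.16 selected genes (minimum count 10, minimum total 15), which were scaled with TMM, transformed with voom and tested with limma 3.58.1 in R 4.3.3, two-sided, with Benjamini-Hochberg adjustment over 13644 genes and a threshold of 0.05. Correlations used log2 CPM with a prior count of 2. DESeq2 1.42.0 and the quasi-likelihood test of edgeR were among the alternatives. Ratios were tested by exact permutation over libraries. The fit was tested on simulated data. The members and lists were chosen with earlier results of these data known. The planned named genes were the members, the class II pathway lists and the genes most like the members. Only the members are named, since 0 of 47357 reference genes carry an Ensembl identifier, so 8 planned pathway lists, cell type markers and a ratio to Ptprc were not analysed here. RT1 genes are polymorphic and resemble one another, and how the authors' alignment divided reads between them was not tested.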

Additional observations from a re-analysis of the deposited data

How the results depend on the processing

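No paired analysis was made because the SNx and NoOp libraries come from different rats. The labels give no replicate numbers. Of the 3 members, RT1-Da kept its direction and its call in all 15 alternative settings, with log2 fold changes from 1.04 to 1.60. Cd74 kept its direction in all 15 and passed the threshold in 4, at log2 fold changes of 0.83 with DESeq2, 1.04 with library size alone, 0.89 with sample weights and 1.05 without SNx replicate 3. With 1 library left out at a time Cd74 lay between 0.58 and 1.05 and RT1-Ba between 0.996 and 1.56 on the log2 scale. RT1-Ba lost its call without NoOp replicate 2 (1.01) and without SNx replicate 1 (1.24), fits with fewer samples, and kept it in the other 12 of 14 settings. The cause of the changed Cd74 calls was not tested.

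The genes called lower, 2271 in the main fit, numbered 1402 with library size alone, which shifts every fold change upwards by its construction. With 1 library left out they ranged from 1360 to 2563, and the genes called higher from 1497 to 3201. The difference in the ratio of Cd74 to the alpha chains ranged from -0.55 to -0.44 and that of RT1-Da to RT1-Ba from 0.05 to 0.13 with 1 library left out, and 0.5 added counts moved neither beyond the spread between replicates. The normalized table could not give these 2 ratios, as it has no RT1-Ba. The ratio of Cd74 to RT1-Da and the values within ranges of library numbers were added after seeing the data. No alternative was run for the pathway lists or for Ptprc.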
